A study of Homo sapiens with 12 samples.

Results

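Kinesins are motor proteins that use ATP to move along microtubules, or to take microtubules apart, and their genes carry the symbol KIF or KIFC. The 42 protein-coding genes with such a symbol, followed by a digit, were followed among the 61552 gene identifiers counted in RD cells, an established human line of embryonal rhabdomyosarcoma (ERMS), a tumour that resembles immature skeletal muscle. The cells received EHMT1-specific siRNA (n = 3 libraries) or scrambled siRNA (n = 3 libraries) through Lipofectamine RNAiMAX, and RNA was taken after 48 h. EHMT1, or GLP, methylates histones. All 6 libraries came from this 1 line, whose genotype is labelled FN-RMS, and a single siRNA label stands for the knockdown, so siRNA effects on other transcripts cannot be told apart from those of EHMT1. The 6 libraries of a second experiment, on SOX8, were not analysed here.

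The members were split by known role into 14 mitotic kinesins, 15 transport kinesins and 13 others. Mitotic kinesins build the spindle, move chromosomes and complete cytokinesis, and in many cell types their transcripts peak in G2 and mitosis, when their genes are switched on together. Transport kinesins carry vesicles, organelles and ciliary cargo through the cytoplasm at all stages of the cell cycle. The others act in cilia, in Hedgehog and Wnt signalling or on microtubule length, or have no settled role. The members were chosen by symbol, but the family as a whole was selected on its log2 changes in this same contrast, so the counts and medians below describe it and are no independent evidence.

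The libraries held 40639655 to 47258481 gene counts. EHMT1 itself had 55.1 ± 2.26 CPM (counts scaled to a common library size) in EHMT1 siRNA libraries and 139 ± 14.7 CPM in scrambled libraries (SD, n = 3 each). The log2 change was -1.34 (SE 0.072, adjusted p = 9.13e-09 in edgeR; exact two-sided permutation p = 0.1, the smallest that 3 against 3 libraries allow). The muscle lineage genes MYOD1, MYOG, DES and CDH15 were all detected, MYOD1 at a mean of 154.8 CPM in EHMT1 siRNA libraries and 151.4 CPM in scrambled libraries, while MYF5 had no count, which allows up to 0.0641 to 0.0751 CPM at 3 counts per library. MYF6 had 17 counts over all 6 libraries and, like MYF5, was not tested. Of 6 muscle lineage markers tested out of 8, CHRNG and PAX7 rose and 0 fell, while 5.81% of all genes tested rose and 6.54% fell; PAX7 did not pass without EHMT1 siRNA replicate 3. The 5 blood cell markers summed to at most 0.289 CPM in EHMT1 siRNA libraries and 0.188 CPM in scrambled libraries, and the 4 endothelial markers to at most 0.852 CPM in EHMT1 siRNA libraries and 0.676 CPM in scrambled libraries. Of the 5 epithelial markers, KRT18 made up most of a sum of 75.6 to 80.2 CPM in EHMT1 siRNA libraries and 70.5 to 81.5 CPM in scrambled libraries, and CDH1 and KRT19 were at or near 0. Scrambled replicate 2 stood furthest out on the first principal component, and EHMT1 siRNA libraries differed less among themselves than scrambled libraries did, with 2.97 to 3.36 against 8.88 to 21.0 as the chi-square divided by its degrees of freedom.

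The promoters of mitotic kinesin genes held some short words more often than those of the other kinesins, and some promoters are shown first. Those shown were chosen by calls in this same contrast, and any part of the words in the changes was not tested. Windows from 250 bases before to 50 bases after the annotated start were taken from RefSeq (GRCh38.p14), which gave one or more for 14 of the 14 mitotic, 11 of the 15 transport and 9 of the 13 other kinesin genes. The word TTTGAA is the core of the cell cycle genes homology region (CHR), bound by the DREAM and MuvB complexes, and CCAAT is bound by NF-Y. Both were searched on both strands, as were the E2F words TTTCCCGC, TTTGGCGC and TTTCGCGC, and no word contains another. For the members whose call, described further on, held when any 1 library was left out, the 150 bases before and 50 after the start are given here from 5′ to 3′, with each of these words in capitals; KIF1A has several annotated starts, of which 1 is shown.
KIFC1: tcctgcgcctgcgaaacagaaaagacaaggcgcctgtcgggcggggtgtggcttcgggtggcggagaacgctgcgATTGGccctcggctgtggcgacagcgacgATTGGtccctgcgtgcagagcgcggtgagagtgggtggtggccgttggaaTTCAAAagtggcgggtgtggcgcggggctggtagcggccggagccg
KIF15: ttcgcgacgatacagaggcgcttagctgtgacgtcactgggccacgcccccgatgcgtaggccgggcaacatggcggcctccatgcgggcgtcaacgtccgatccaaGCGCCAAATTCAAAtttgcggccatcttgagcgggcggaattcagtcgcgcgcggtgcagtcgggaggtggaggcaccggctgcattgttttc
KIF20A: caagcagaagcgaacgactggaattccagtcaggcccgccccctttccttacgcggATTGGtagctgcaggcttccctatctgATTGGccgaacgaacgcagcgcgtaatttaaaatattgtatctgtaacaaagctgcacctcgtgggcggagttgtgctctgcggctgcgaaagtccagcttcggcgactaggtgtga
KIF20B: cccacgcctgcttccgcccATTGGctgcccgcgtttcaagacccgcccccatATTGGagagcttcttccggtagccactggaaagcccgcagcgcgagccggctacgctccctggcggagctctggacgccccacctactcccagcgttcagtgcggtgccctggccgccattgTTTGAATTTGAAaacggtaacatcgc
KIF1A: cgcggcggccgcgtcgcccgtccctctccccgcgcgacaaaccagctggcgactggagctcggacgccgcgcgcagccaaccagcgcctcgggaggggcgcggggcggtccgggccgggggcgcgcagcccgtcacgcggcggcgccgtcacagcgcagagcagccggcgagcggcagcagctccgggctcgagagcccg
KIF3C: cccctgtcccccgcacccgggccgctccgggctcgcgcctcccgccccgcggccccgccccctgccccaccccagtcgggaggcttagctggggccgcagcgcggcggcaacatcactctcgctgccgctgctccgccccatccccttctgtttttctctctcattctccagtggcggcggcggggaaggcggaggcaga
KIF26A: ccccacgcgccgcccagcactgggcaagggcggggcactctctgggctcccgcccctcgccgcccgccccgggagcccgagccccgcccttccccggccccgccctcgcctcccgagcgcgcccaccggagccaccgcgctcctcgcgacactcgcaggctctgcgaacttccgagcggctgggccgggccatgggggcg
The windows lie at chr6:33391673-33391872 on the plus strand for KIFC1, chr3:44761644-44761843 on the plus strand for KIF15, chr5:138178962-138179161 on the plus strand for KIF20A and chr10:89701440-89701639 on the plus strand for KIF20B. For the others they lie at chr2:240820170-240820369 on the minus strand for KIF1A, chr2:25982448-25982647 on the minus strand for KIF3C and chr14:104138437-104138636 on the plus strand for KIF26A. The Ensembl identifiers of these genes are ENSG00000237649 for KIFC1, ENSG00000163808 for KIF15, ENSG00000112984 for KIF20A, ENSG00000138182 for KIF20B, ENSG00000130294 for KIF1A, ENSG00000084731 for KIF3C and ENSG00000066735 for KIF26A.

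Of the 14 mitotic kinesin genes, 10 held TTTGAA or its reverse TTCAAA, 11 held CCAAT or its reverse ATTGG, and 9 held both words. KIF20B carried TTTGAA in tandem just after the start, and KIF15 carried TTCAAA directly beside the E2F word GCGCCAAA, the only E2F word found in the group. In KIFC1 the word began 5 bases after the start, with ATTGG upstream of it at 2 places. KIF20A and KIF22 held CCAAT boxes with no TTTGAA, and KIF2C and KIF2B held none of the words. Neither did KIF1A, KIF3C or KIF26A, whose windows above therefore carry no capitals. Of the 11 transport genes with a window, KIF5B alone held TTTGAA, 140 bases before the start, and 4 held CCAAT; of the 9 other kinesin genes none held TTTGAA and 3 held CCAAT. Counted by window, TTTGAA was in 66.7% of the 15 mitotic windows, 6.25% of the 16 transport windows and 15.2% of all 35116 windows in the table, or 10.7% of the 16160 windows of protein-coding genes tested below. CCAAT was in 73.3%, 31.2%, 34.6% and 34.7% of the same windows. Such a match describes these letters and does not show that a factor binds there.

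**Figure D1:**
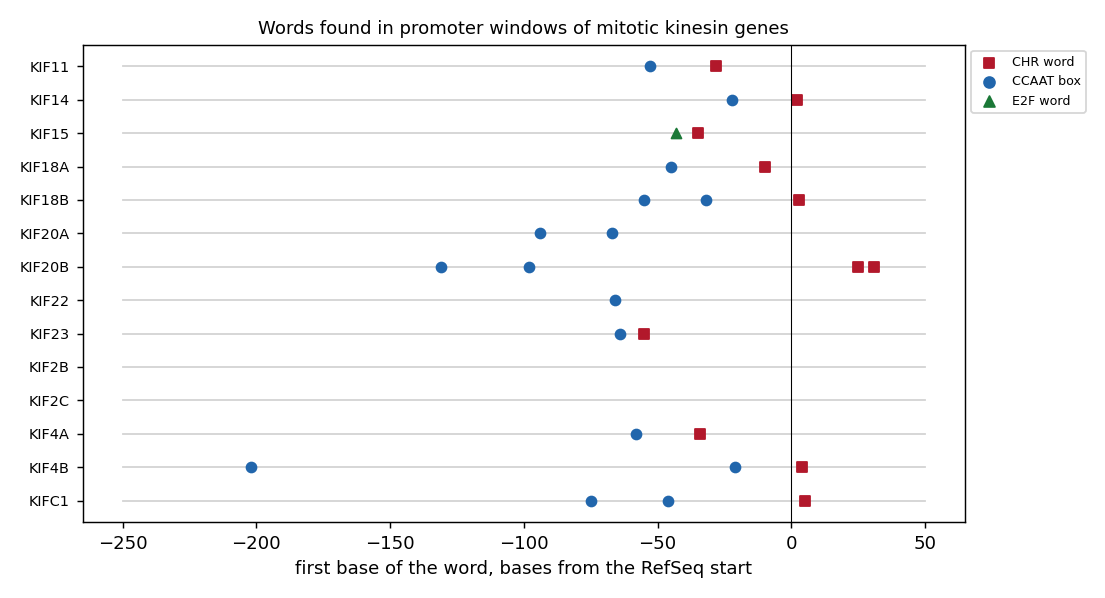
Position of the first base of each word found in the promoter windows of the 14 mitotic kinesin genes, in bases from the RefSeq start. Squares mark the CHR word, circles CCAAT boxes and the triangle an E2F word, all in either orientation; 10 genes carry a square and 11 a circle.

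Of the 42 members, 37 passed the filter on low counts and were tested. KIF2B, a depolymerase of kinetochore microtubules known from other cell types, had no count in any library. KIF4B, an intronless copy of KIF4A with which it can share reads, had 16 counts over all 6 libraries, KIF19 had 24, KIF12 37 and KIF25 48, and these were not tested. Compared per kb of exon, since longer transcripts yield more reads, KIF5B, the ubiquitous heavy chain of conventional kinesin, had the highest mean. It was at 40.1 CPM per kb in EHMT1 siRNA libraries and 42.7 CPM per kb in scrambled libraries. KIF11, KIF2C, KIF20A and KIFC1, all mitotic, came next in both groups, with 25.3 to 34.4 CPM per kb in EHMT1 siRNA libraries and 32.7 to 41.0 CPM per kb in scrambled libraries. By this measure the 12 tested mitotic kinesins all lay within the first 16 places of the order. KIF5B, KIF11 and KIF2C, at 42.7, 41.0 and 40.0 CPM per kb in scrambled libraries, were too close there to be ordered given their spread. At the low end lay KIF21A and KIF6, at 0.499 and 0.353 CPM per kb in EHMT1 siRNA libraries and 0.469 and 0.337 CPM per kb in scrambled libraries. The order depends on merged exon lengths, which reached 16695 bases for KIF1A and 17720 for KIF1B but at most 7277 (KIF14) for tested mitotic kinesins. Without division by length, tested mitotic kinesins ran from 63.6 (KIF18A) to 199.1 CPM (KIF11) in scrambled libraries. Transport kinesins ran there from 4.80 (KIF17) to 250.7 CPM (KIF5B), with KIF1C at 214.3, KIF1A at 181.3 and KIF1B at 135.7 CPM.

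**Figure D2:**
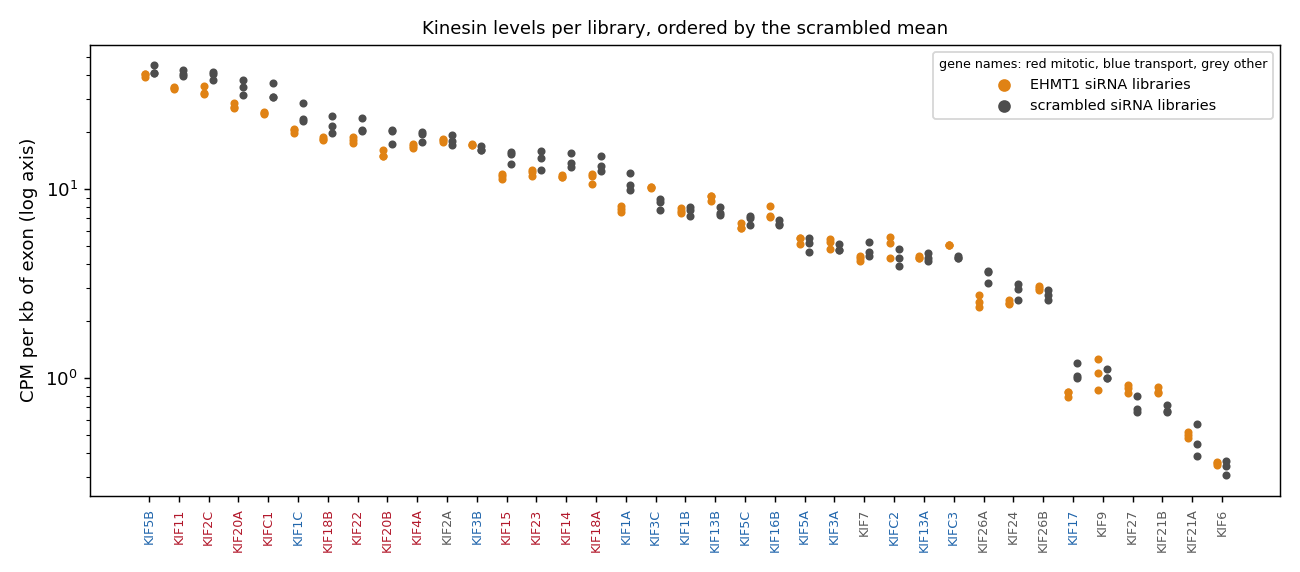
Level of each of the 37 tested kinesins in every library, as CPM per kb of exon on a log axis, ordered by the mean of scrambled libraries. Points left of each position are EHMT1 siRNA libraries and points right of it scrambled libraries; gene names are red for mitotic, blue for transport and grey for other kinesins, and the red names fall in the first 16 places.

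Mitotic kinesins fell together with EHMT1 siRNA. Of 12 tested, 11 fell and 0 rose, with log2 changes of -0.37 to -0.24, and the 12th, KIF4A, was at -0.17 and did not pass (adjusted p = 0.0704 in edgeR). The background in the same fit was 6.54% of the 18646 genes tested that fell and 5.81% that rose, or 8.49% and 6.99% of protein-coding genes. The group's median log2 change was -0.26, against 0.00 over all genes tested. In all 12 genes the EHMT1 siRNA libraries lay wholly below the scrambled ones, as they did in 15.5% of all genes tested and 18.7% of protein-coding genes. The split by role was made with earlier results known, and KIF2A, which also acts at spindle poles, stands among the other kinesins with a log2 change of -0.01 and overlapping libraries. The summed level was 1116, 1113 and 1097 CPM in EHMT1 siRNA replicates 1, 2 and 3, and 1388, 1400 and 1250 CPM in scrambled replicates 1, 2 and 3. Scrambled replicate 3 was the nearest to the EHMT1 siRNA libraries, being the lowest scrambled library for 10 of the 12 genes. In bulk RNA, fewer cells in G2 and mitosis and less RNA per such cell cannot be told apart.

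Among motors that set up the spindle, KIFC1, a minus-end motor that focuses spindle poles and clusters extra centrosomes, had 84.4, 83.7 and 85.5 CPM in EHMT1 siRNA libraries and 103.2, 122.1 and 103.2 CPM in scrambled libraries. The groups did not overlap, and the log2 change was -0.37 (SE 0.067, adjusted p = 0.00151 in edgeR), the lowest of the mitotic group. KIF15, which can keep spindles bipolar when KIF11 fails, had 62.2, 63.7 and 60.0 CPM in EHMT1 siRNA libraries and 82.9, 81.4 and 71.6 CPM in scrambled libraries. Its log2 change was -0.34 (SE 0.064, adjusted p = 0.00216 in edgeR), with scrambled replicate 3 well below the other scrambled libraries. KIF11, the motor that slides spindle microtubules apart and the target of several antimitotic drugs, had 169.3, 167.4 and 165.0 CPM in EHMT1 siRNA libraries and 207.7, 197.5 and 192.2 CPM in scrambled libraries. Its log2 change was -0.25 (SE 0.055, adjusted p = 0.00634 in edgeR), and no library of either group overlapped the other. The calls of KIFC1 and KIF15 held when any 1 library was left out, and that of KIF11 was lost without EHMT1 siRNA replicate 2 or 3.

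Among the motors that act on chromosomes and kinetochores, KIF2C, KIF18A, KIF18B and KIF22 fell and KIF4A did not pass the test. KIF2C, a microtubule depolymerase of the centromere that corrects wrong attachments, had 128.3, 116.5 and 117.7 CPM in EHMT1 siRNA libraries and 148.8, 151.3 and 137.6 CPM in scrambled libraries. The log2 change was -0.27 (SE 0.061, adjusted p = 0.00719 in edgeR), which did not pass without EHMT1 siRNA replicate 2 or 3. KIF18A, which dampens chromosome movements at the metaphase plate, had 55.8, 54.5 and 49.9 CPM in EHMT1 siRNA libraries and 70.2, 62.1 and 58.5 CPM in scrambled libraries. KIF18B, which shortens astral microtubules, had 85.5, 84.1 and 87.9 CPM in EHMT1 siRNA libraries and 100.1, 113.8 and 92.6 CPM in scrambled libraries. The log2 change was -0.25 in both genes (adjusted p = 0.0271 for KIF18A and 0.0237 for KIF18B in edgeR), with scrambled replicate 3 the nearest to the EHMT1 siRNA libraries in either. KIF22, a motor bound to chromosome arms, had 75.7, 78.3 and 81.7 CPM in EHMT1 siRNA libraries and 88.3, 101.9 and 87.4 CPM in scrambled libraries. It changed by -0.24 (adjusted p = 0.0260 in edgeR), with scrambled replicate 2 the furthest away. KIF4A, the other chromosome-arm motor, had 78.6, 76.3 and 74.6 CPM in EHMT1 siRNA libraries and 90.4, 88.4 and 80.1 CPM in scrambled libraries, a smaller gap than the others. It passed the test without scrambled replicate 2 or without scrambled replicate 3. KIF18A, KIF18B and KIF22 no longer passed once any EHMT1 siRNA library was left out, nor did KIF18A without scrambled replicate 1.

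The motors of the central spindle and cytokinesis were lower as well. KIF20A, which carries the chromosomal passenger complex to the central spindle, had 106.7, 112.9 and 107.3 CPM in EHMT1 siRNA libraries and 136.5, 150.3 and 124.9 CPM in scrambled libraries. The log2 change was -0.33 (SE 0.066, adjusted p = 0.0033 in edgeR). KIF20B, a relative needed to complete cytokinesis, had 101.9, 110.4 and 103.1 CPM in EHMT1 siRNA libraries and 141.3, 139.8 and 118.9 CPM in scrambled libraries, a log2 change of -0.34 (SE 0.068, adjusted p = 0.00324 in edgeR). Both calls held when any 1 library was left out, and in both genes the EHMT1 siRNA libraries were the less spread. KIF14, which recruits citron kinase to the midbody, had 84.7, 84.4 and 86.3 CPM in EHMT1 siRNA libraries and 113.6, 94.9 and 99.9 CPM in scrambled libraries. It changed by -0.27 (adjusted p = 0.0115 in edgeR), which did not pass once any EHMT1 siRNA library was left out. KIF23, the motor subunit of centralspindlin, had 83.08, 80.61 and 77.56 CPM in EHMT1 siRNA libraries and 104.8, 96.35 and 83.13 CPM in scrambled libraries. EHMT1 siRNA replicate 1 thus lay only just below scrambled replicate 3. The log2 change of KIF23 was -0.24 (SE 0.073, adjusted p = 0.0418 in edgeR), the weakest call of the group. It did not pass without scrambled replicate 1, with any EHMT1 siRNA library left out, with upper quartile factors and in limma-voom.

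Without EHMT1 siRNA replicate 1, 2 or 3 the number of mitotic kinesins that fell was 6, 4 or 4, and without scrambled replicate 1, 2 or 3 it was 9, 12 or 12. None rose in any of these fits. The median log2 change lay between -0.32 and -0.26 in the same 6 fits. The total of genes called in each direction also shrank when an EHMT1 siRNA library was left out, to 484 to 607 that fell and 452 to 565 that rose, against 1220 and 1084 with all libraries.

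**Figure D3:**
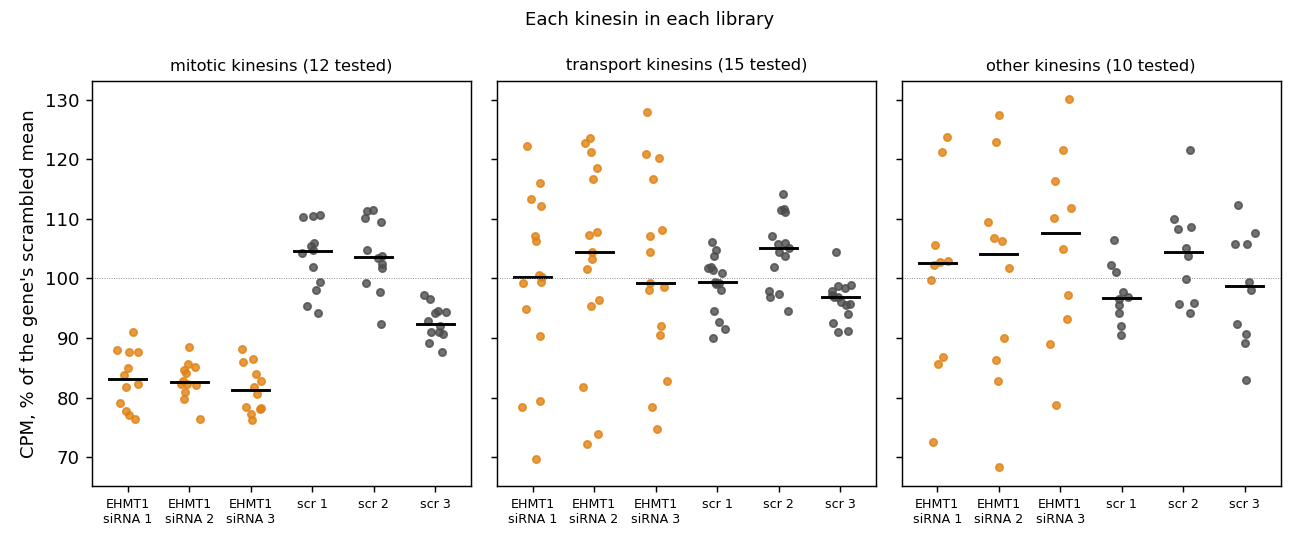
CPM of each tested kinesin in each library as a percentage of that gene's mean over scrambled libraries, with a bar at the median; EHMT1 siRNA libraries are orange and scrambled libraries (scr) grey. Median mitotic kinesins lie at 81.3% to 83.1% in EHMT1 siRNA libraries and at 92.4% to 105% in scrambled libraries, while medians of transport kinesins lie at 99.2% to 105% in EHMT1 siRNA and 96.9% to 105% in scrambled libraries.

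Transport kinesins held calls in both directions. Of 15 tested, all of them members, 2 fell, 3 rose and 10 did not pass the test. The background was 6.54% of all genes tested that fell and 5.81% that rose, or 8.49% and 6.99% of protein-coding genes. Whether these few calls exceeded that background was not tested. The groups of libraries did not overlap for 4 genes that were lower and 5 that were higher with EHMT1 siRNA, beside 15.5% and 15.4% of all genes tested and 18.7% and 16.9% of protein-coding ones. The median log2 change was 0.07, and changes ran from -0.47 to 0.29. KIF1A, a fast motor for synaptic vesicle precursors in neurons, had 126.2, 131.0 and 135.4 CPM in EHMT1 siRNA libraries and 165.9, 202.1 and 175.7 CPM in scrambled libraries. The groups lay well apart, with a log2 change of -0.47 (SE 0.069, adjusted p = 0.000284 in edgeR), the lowest of the 37 tested kinesins, and the call held when any 1 library was left out. KIF1C, a related motor of dense core vesicles and of integrin transport, had 170.1, 175.3 and 177.6 CPM in EHMT1 siRNA libraries and 202.6, 244.8 and 195.5 CPM in scrambled libraries. Scrambled replicate 2 was far above its group there, and the log2 change of -0.30 (SE 0.073, adjusted p = 0.0123 in edgeR) did not pass with any EHMT1 siRNA library left out. The third motor of that branch, KIF1B, which moves mitochondria and synaptic vesicle precursors, had 136 ± 3.64 CPM in EHMT1 siRNA libraries and 136 ± 6.78 CPM in scrambled libraries (SD, n = 3 each) and did not pass the test. The neuronal markers SNAP25 and TUBB3 averaged 4.97 and 5.65 CPM in EHMT1 siRNA libraries and 4.33 and 5.10 CPM in scrambled libraries. RBFOX3 and SYN1 were nearly absent, at 0.128 and 0.657 CPM in EHMT1 siRNA libraries and 0.0741 and 0.451 CPM in scrambled libraries. The sum of the 4 neuronal markers was 10.9 to 11.7 CPM in EHMT1 siRNA libraries and 9.66 to 10.3 CPM in scrambled libraries. The part of these markers in the change of KIF1A was not tested.

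The 3 transport kinesins that rose were KIF3C, KIF13B and KIFC3. KIF3C, a partner of KIF3A in a heterodimeric motor, had 65.8, 66.0 and 65.0 CPM in EHMT1 siRNA libraries and 54.8, 57.0 and 49.8 CPM in scrambled libraries. EHMT1 siRNA libraries were tightly grouped above all scrambled ones, and the log2 change was 0.29 (SE 0.062, adjusted p = 0.00606 in edgeR), which held when any 1 library was left out. KIF3A and KIF3B, the pair that drives transport into cilia, did not pass the test. KIF3A had 35.4 ± 2.20 CPM in EHMT1 siRNA libraries and 33.4 ± 1.41 CPM in scrambled libraries, and KIF3B 104.9 ± 1.01 CPM in EHMT1 siRNA libraries and 99.8 ± 3.21 CPM in scrambled libraries (SD, n = 3 each). KIFAP3, the accessory subunit that binds these heterodimers, rose to 30.8 CPM in EHMT1 siRNA libraries, against 23.0 CPM in scrambled libraries, with a log2 change of 0.42 (SE 0.085, adjusted p = 0.00341 in edgeR). KIF13B, a motor that carries signalling and polarity proteins, had 96.0, 102.7 and 101.9 CPM in EHMT1 siRNA libraries and 83.1, 89.7 and 81.4 CPM in scrambled libraries, with a log2 change of 0.24 (SE 0.059, adjusted p = 0.0125 in edgeR). KIFC3, a minus-end motor of epithelial junctions and the Golgi, had 48.5, 48.8 and 48.8 CPM in EHMT1 siRNA libraries and 41.5, 42.6 and 41.3 CPM in scrambled libraries, with a log2 change of 0.22 (SE 0.058, adjusted p = 0.0188 in edgeR). No libraries of the groups overlapped in these genes. The call of KIF13B was lost without EHMT1 siRNA replicate 2 or 3, and that of KIFC3 without any 1 of the 3.

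The conventional kinesin heavy chains did not pass the test in either direction. KIF5B, expressed in most tissues, had 237.7, 239.0 and 230.6 CPM in EHMT1 siRNA libraries and 266.0, 242.9 and 243.0 CPM in scrambled libraries, a log2 change of -0.09 (SE 0.057). The groups did not overlap but lay close together. Its neuronal relatives KIF5C and KIF5A were at -0.11 (SE 0.061) and 0.07 (SE 0.072). KIF5C had 58.7 ± 2.15 CPM in EHMT1 siRNA libraries and 63.5 ± 3.41 CPM in scrambled libraries (SD, n = 3 each), with overlap between the groups. Only 50.7% of the strand-assigned reads of KIF5A were on the strand that carried 90.3% to 97.4% of those of the conventional and related motors KIF5B, KIF5C, KIF1A, KIF1B and KIF3A. Its count on that strand was 101% of its unstranded count, and the log2 change there was 0.09. KIF17, a motor of dendrites and cilia, was at 3.69 CPM in EHMT1 siRNA libraries and 4.80 CPM in scrambled libraries, and its -0.38 (SE 0.129, adjusted p = 0.0666 in edgeR) did not pass. The endosome motor KIF16B had 57.7 ± 4.70 CPM in EHMT1 siRNA libraries and 51.1 ± 1.71 CPM in scrambled libraries (SD, n = 3 each), a log2 change of 0.18 that did not pass. KIFC2 had 22.3 ± 2.84 CPM in EHMT1 siRNA libraries and 19.4 ± 2.06 CPM in scrambled libraries, at 0.21, and KIF13A, which moves endosomes and Golgi-derived vesicles, was at 0.00; neither passed. KIF16B passed without scrambled replicate 2, as did KIFC2, which brought the risen transport kinesins to 5. Without EHMT1 siRNA replicate 1, 2 or 3 the risen numbered 2, 1 or 1 and the fallen 1 in each case, KIF1A.

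Among the 10 other kinesins tested, 1 fell (10.0%) and 1 rose (10.0%), shares near the 8.49% and 6.99% of protein-coding genes that fell and rose. KIF26A, which lacks motor activity and acts in growth factor signalling of enteric neurons in mice, had 17.2, 16.2 and 18.6 CPM in EHMT1 siRNA libraries and 21.4, 24.5 and 25.0 CPM in scrambled libraries. Its log2 change was -0.45 (SE 0.083, adjusted p = 0.00185 in edgeR), close in size to that of KIF1A, and held when any 1 library was left out. KIF21B, a neuronal motor that limits microtubule growth, had 10.1, 10.2 and 10.8 CPM in EHMT1 siRNA libraries and 8.08, 8.76 and 8.17 CPM in scrambled libraries. The log2 change was 0.32 (SE 0.092, adjusted p = 0.0301 in edgeR), which failed to pass without scrambled replicate 1 or 3, or with any EHMT1 siRNA library left out. KIF26B, the relative of KIF26A that is degraded in response to Wnt ligands, had 43.2 CPM in EHMT1 siRNA libraries and 39.6 CPM in scrambled libraries on average and did not pass. KIF2A, a depolymerase of spindle poles and of neurites, had 86.5 ± 1.98 CPM in EHMT1 siRNA libraries and 86.8 ± 5.37 CPM in scrambled libraries, a log2 change of -0.01 (SE 0.060, SD over n = 3 each). KIF7, which organises the ciliary tip in Hedgehog signalling, had 21.5 ± 0.771 CPM in EHMT1 siRNA libraries and 23.9 ± 2.16 CPM in scrambled libraries (SD, n = 3 each), a log2 change of -0.15 that did not pass. KIF24, a depolymerase that restrains cilia, had 15.4 ± 0.322 CPM in EHMT1 siRNA libraries and 17.7 ± 1.76 CPM in scrambled libraries (SD, n = 3 each); its -0.20 passed, among the alternatives run, only without scrambled replicate 3. KIF27, KIF21A, KIF6 and KIF9 lay at 4.19 to 6.22 CPM in EHMT1 siRNA libraries and 3.69 to 6.09 CPM in scrambled libraries and did not pass. Of the strand-assigned reads of KIF9 and KIF7, 51.1% and 63.3% lay on the sense column; a gene named as antisense to KIF9, KIF9-AS1, was at 2.98 CPM in EHMT1 siRNA libraries and 2.68 CPM in scrambled libraries.

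**Figure D4:**
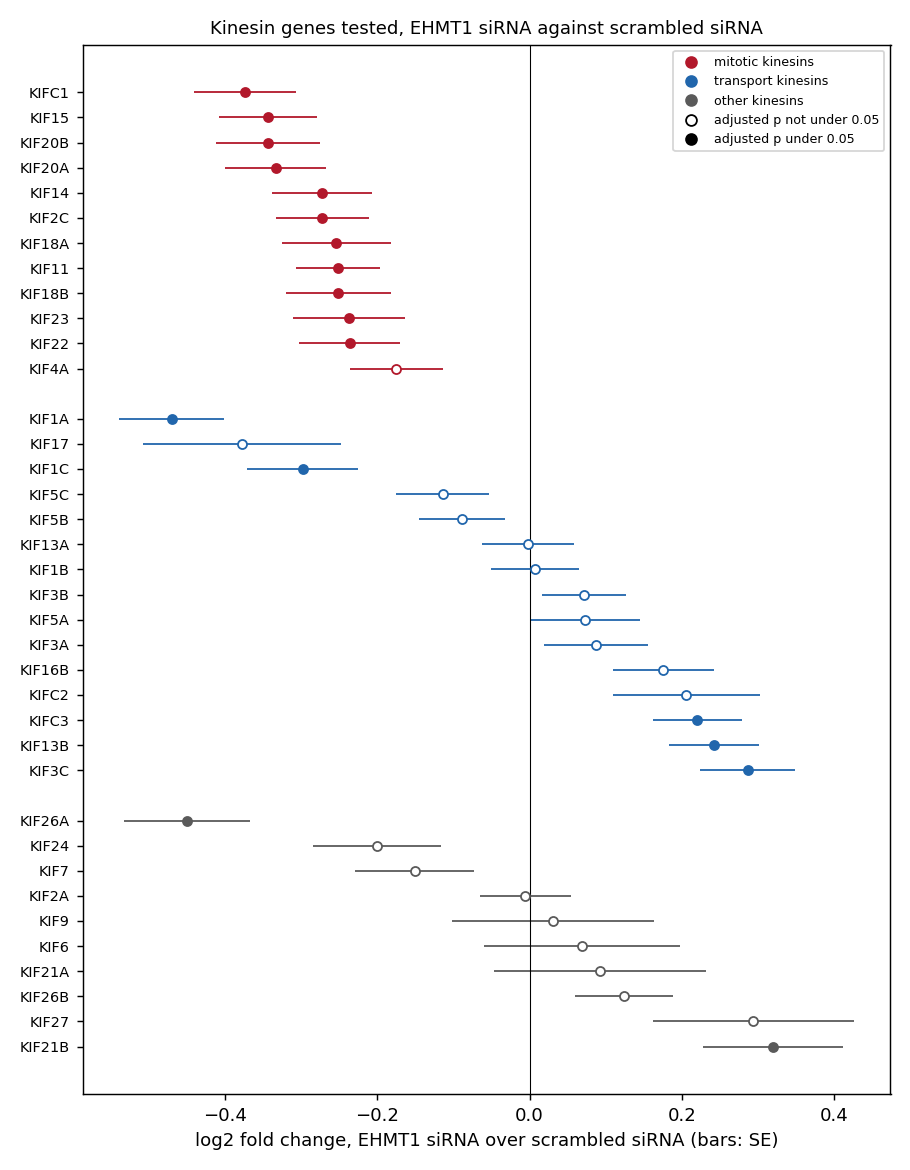
Log2 fold change of EHMT1 siRNA over scrambled siRNA for the 37 tested kinesins, with bars for the SE, grouped as mitotic, transport and other kinesins from top to bottom. Filled points passed an edgeR adjusted p of 0.05; all 12 mitotic kinesins lie left of 0, between -0.37 and -0.17, while transport kinesins run from -0.47 to 0.29.

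Partners of the mitotic kinesins were lower too. Of 26 listed and tested, 16 fell (61.5%) and 0 rose, beside 8.49% and 6.99% of protein-coding genes, with a median log2 change of -0.26. PRC1 and NUSAP1, named after their values were seen, had only 178 and 157 counts over all 6 libraries. Reads ambiguous between genes stayed out of these counts, so they may understate the level of either gene, which was not tested. Neither passed (SE 0.32 and 0.31), and NUSAP1 was the 1 partner with a change above 0. HMMR, which holds spindle poles together, was at -0.40, and CENPE, a kinetochore kinesin without the KIF symbol, at -0.38. CDCA8, of the passenger complex that KIF20A carries, was at -0.30 and the mitotic kinase gene CDK1 at -0.39 (adjusted p at most 0.00169 in edgeR for these 4). RACGAP1, the partner of KIF23 in centralspindlin, fell by 0.21 on the log2 scale (adjusted p = 0.0272 in edgeR), a change that did not pass once scrambled replicate 1 or any EHMT1 siRNA library was left out. CIT, the kinase recruited by KIF14, was at -0.07 (SE 0.067) and did not pass (both named after their values were seen). Of the 8 proliferation markers, 7 fell (87.5%) and 0 rose, beside the same background, with a median of -0.32, MCM2 at -0.49, CCNA2 at -0.38, PCNA at -0.37 and MKI67 at -0.36. The proliferation markers summed to 1377 to 1404 CPM in EHMT1 siRNA libraries and 1628 to 1799 CPM in scrambled libraries, and scrambled replicate 3 was the lowest scrambled library for all 8. These markers moved with the mitotic kinesins, and their part in the result was not tested.

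Of 20 regulators of cell cycle genes, 5 fell (25.0%) and 0 rose, beside 8.49% and 6.99% of protein-coding genes, with a median of -0.11. MYBL2, which with the MuvB core activates genes that carry CHR words, had 168.7 CPM in EHMT1 siRNA libraries and 263.9 CPM in scrambled libraries (means, n = 3 each), a log2 change of -0.65 (SE 0.076, adjusted p = 4.19e-05 in edgeR). FOXM1, the factor that joins it at promoters of G2 and mitosis genes, was at -0.32 (adjusted p = 0.00976 in edgeR), a call lost without EHMT1 siRNA replicate 2. E2F1 was at -0.47 and RBL1, a pocket protein of the repressive DREAM complex, at -0.39. The MuvB core genes LIN9, LIN52, LIN54, LIN37 and RBBP4 lay between -0.18 and 0.03 and did not pass. These 5 were named after their values were seen. In LIN9, LIN52 and RBBP4 the EHMT1 siRNA libraries lay wholly below the scrambled ones, as in 18.7% of protein-coding genes. LIN9 and RBBP4 passed as lower without scrambled replicate 2. LIN37 had only 1.27 CPM in EHMT1 siRNA libraries and 1.30 CPM in scrambled libraries (SE of its log2 change 0.22).

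Of 23 partners of transport kinesins tested out of 25, 0 fell and 2 rose (8.7%), beside 8.49% and 6.99% of protein-coding genes, with a median log2 change of 0.04. These were KIFAP3 and MAPK8IP3, an adaptor between kinesin light chains and cargo, at 0.22 (adjusted p = 0.0334 in edgeR), which did not pass without scrambled replicate 1 or 3, or with any EHMT1 siRNA library left out. BORCS5, of a complex that couples lysosomes to kinesin, was at 0.33 (adjusted p = 0.0502 in edgeR). TRAK1, a mitochondrial adaptor, was at -0.17 (adjusted p = 0.0685 in edgeR), and neither passed. With a replicate block BORCS5 passed as higher and TRAK1 as lower. BORCS5 also passed with upper quartile factors, with genes kept at 1 CPM or more in 3 libraries, and without scrambled replicate 2. TRAK1 also passed without scrambled replicate 1. Of 27 genes tested out of 28 for cytoplasmic dynein, the motor that moves the opposite way to most kinesins, and its cofactor dynactin, 0 fell and 1 rose (3.7%), beside the same shares, with a median of 0.02. It was the light chain gene DYNLT3 at 0.24 (adjusted p = 0.0442 in edgeR), which did not pass once scrambled replicate 3 or any EHMT1 siRNA library was left out. DYNC1I1 at -0.60 (SE 0.20, adjusted p = 0.0594 in edgeR), DCTN5 at 0.15 and DCTN4 at -0.13 did not pass. DYNC1I1 had only 1.51 CPM in EHMT1 siRNA libraries and 2.29 CPM in scrambled libraries, and it passed as lower with a replicate block. DCTN5 passed as higher without scrambled replicate 1, and DCTN4 as lower without scrambled replicate 2.

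**Figure D5:**
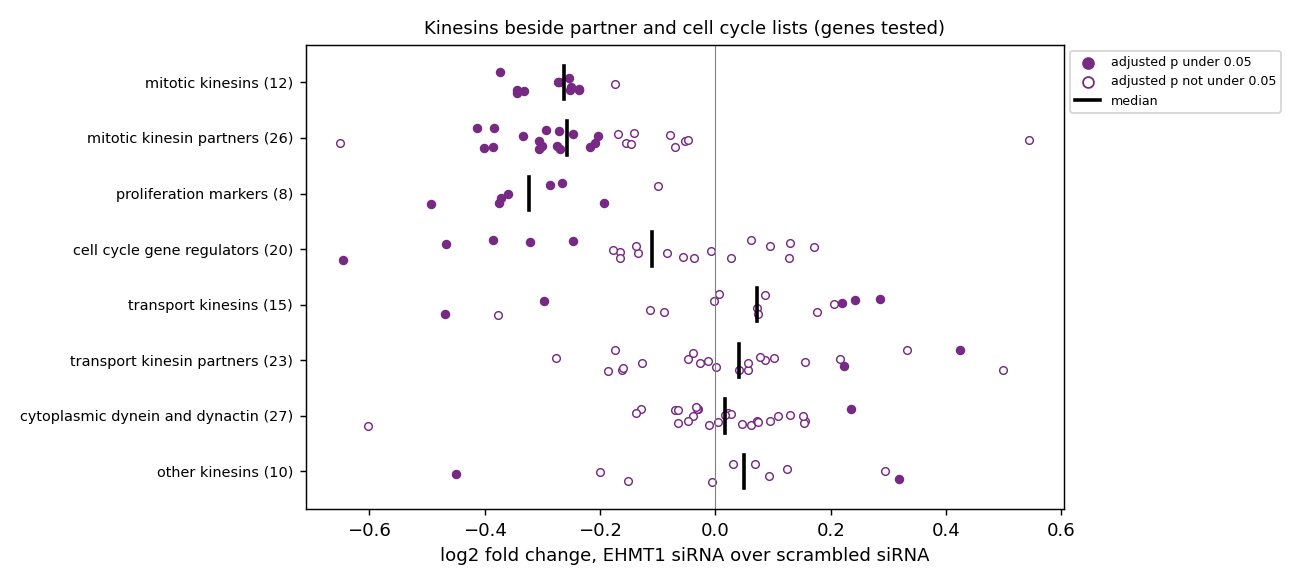
Log2 fold change of EHMT1 siRNA over scrambled siRNA for each tested gene of the kinesin groups and of 5 lists beside them; filled points passed an edgeR adjusted p of 0.05 and black bars are medians. Medians lie at -0.26 for mitotic kinesins and for their partners and at -0.32 for proliferation markers, against 0.07, 0.04 and 0.02 for transport kinesins, their partners and dynein.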

How the data were processed

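Poly-A RNA libraries (NEBNext Ultra kit, per the labels' protocols) were deposited as raw counts per gene, made by the authors with no normalization and in the layout of STAR's gene count table: an unstranded column, used here, and a column per strand. Tools named in the submitters' processing notes were STAR 2.5, HTSeq 0.6.1, CASAVA, bcl2fastq and DESeq2, with hg19 as build; the annotation is not given in the sources used here. Symbols matched 61399 and biotypes and exon lengths (GENCODE release 29) 58352 of 61552 identifiers. Lengths are those of merged exons. KIFBP, listed as KIF1BP in that release, is no motor and was left out.

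Rows that name no gene (20.0% to 21.2% of reads) stayed out. Counts of 18646 genes that passed filterByExpr (minimum count 10) were scaled by TMM and tested for group with the robust quasi-likelihood F test of edgeR 4.0.16 (R 4.3.3). P-values were adjusted by Benjamini-Hochberg over all of them, and 0.05 was the threshold. CPM values use TMM factors, SEs are the absolute log2 change divided by the root of F, and floors cover counting error only. "Fell" and "rose" mean that this test passed. The procedure was tested on simulated data. There all genes in both groups had the same spread, unlike in these libraries, and no result here rests on it. Nothing in the labels says that replicates came from separate cultures. The p-values therefore rest on a spread between libraries that may be technical. Reads ambiguous between genes, 9.94% to 10.3% of reads in the unstranded column, stayed out with the rows that name no gene. For some kinesins the sense column held more than the unstranded one, 125.5% of it for KIF2A, 121.4% for KIF22 and 110.6% for KIF2C. Levels per kb and their order therefore hold for the unstranded column only. Other reads of antisense partners or of close copies cannot be told apart in that column.

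Members and lists were chosen with earlier results of these data known. Named genes were all members, EHMT1 and up to 4 genes with the smallest adjusted p of each partner list; others are marked or are markers. Alternatives were other size factors, filters, DESeq2 1.42.0, limma-voom (limma 3.58.1), a replicate block, either strand column, an adjusted p of 0.01 and leaving out each library.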

Additional observations from a re-analysis of the deposited data

How the results depend on the processing

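Of the 37 tested kinesins, none changed sign together with a call under any alternative. Every kinesin kept its side of the threshold with RLE factors, without a filter, with genes kept at 1 CPM or more in 3 libraries, in DESeq2 and in strand column 4, which holds 87.1% to 89.0% of strand counts. Upper quartile factors and limma-voom each lost 1 call, KIF23. Strand column 3, with few reads, called 0 mitotic, 1 fallen and 0 risen transport and 0 other kinesins, and 87 fallen and 90 risen genes in all; there the transport median was -0.041. At an adjusted p of 0.01, 6 mitotic kinesins fell, 1 transport kinesin fell and 1 rose, 0 other kinesins rose, and 525 genes fell and 492 rose. With 1 library left out, 4 to 12 mitotic kinesins fell, 1 to 2 transport kinesins fell and 1 to 5 rose, 1 to 2 other kinesins fell and 0 to 1 rose, and 484 to 1923 genes fell and 452 to 1625 rose; fewer samples were fitted in each. Whether replicate numbers pair the libraries was not settled, and the main fit took no account of them. Deviations of same-numbered libraries correlated only weakly, at 0.0555, 0.0154 and 0.025 for replicates 1, 2 and 3. Every library still correlated best with its own number except scrambled replicate 2, at 0.0185 with EHMT1 siRNA replicate 3. Unmapped reads made up 2.543% and 2.536% in EHMT1 siRNA and scrambled replicate 1, and 3.121% and 3.111% in replicate 2. In replicate 3 they made up 2.965% and 3.275%. A replicate block gave 12 fallen mitotic, 2 fallen and 4 risen transport kinesins, with KIF4A and KIF16B added, and 1632 fallen and 1474 risen genes, with a median of -0.26 for mitotic kinesins and a log2 change of -1.33 for EHMT1. At 40639655 to 47258481 gene counts per library, kinesins under the filter could not be compared.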
